A study of Mus musculus with 28 samples.

Results

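The ISG15 conjugation system was followed through 5 genes, Isg15, Uba7, Ube2l6, Herc6 and Usp18, in 28 bulk RNA libraries of primary mouse microglia, the resident macrophages of the brain. The genes were taken by symbol and not by a rule on their measured values, but earlier results of these data were known when they were chosen. Each of the 5 symbols had 1 entry among the 29066 genes with a count above 0 in some library. ISG15 is a ubiquitin-like protein encoded by a gene that type I interferon induces. It is joined to lysines of other proteins by an enzyme cascade of the same kind as that of ubiquitin: UBA7, the activating enzyme (E1), passes it to UBE2L6, the conjugating enzyme (E2), and an E3 ligase, HERC6 in the mouse, places it on its substrates, many of them newly made proteins. USP18 removes it again and, apart from that protease activity, binds the interferon receptor subunit IFNAR2 and dampens interferon signalling, so that the set holds a modifier, its writers, its eraser and a brake on the pathway.

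The microglia came from mice with APOE3S/S (label Christchurch, the name of a rare APOE variant) or with APOE3 (label WT), and were treated with tau, with amyloid or with nothing (label Control, here untreated). There were 6 APOE3S/S tau, 3 APOE3S/S amyloid, 4 APOE3S/S untreated, 6 APOE3 tau, 3 APOE3 amyloid and 6 APOE3 untreated libraries. The form, dose and duration of the tau and amyloid treatments are not given in the labels, which also do not say whether replicates came from separate cultures or animals, so that p-values measure the spread between these libraries, which may be technical. Library titles follow 2 title series: 17 carry the suffix SAN, and the other 11, called the second series here, hold no amyloid libraries. In the text, libraries are numbered within a group in accession order, a number that pairs nothing across groups. In APOE3S/S, untreated libraries 1 and 2 and tau libraries 4 to 6 were SAN; in APOE3, untreated libraries 1 to 3 and tau libraries 4 to 6 were SAN.

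Library totals ran from 14464761 to 27220695 counts, and each gene of the system had between 250 and 6528 counts in every library. Summed microglial markers (12 genes such as Cx3cr1, P2ry12 and Csf1r) held 6080 to 9559 CPM (counts per 1000000 counts of the library) in every library; of the 12, Siglech had a median of 0 CPM, while Cx3cr1, P2ry12 and Sall1 had counts in all 28. Neuronal markers summed to at most 3.85 CPM and lymphocyte markers to at most 0.691 CPM, while markers shared with monocytes reached 4694 CPM and those of border macrophages 3375 CPM. In RNA from whole cultures, a change in the number of cells that express a gene and a change in RNA per cell cannot be told apart. APOE3S/S untreated library 2 stood apart from its group before any test: it held 245 CPM of Isg15, against 27.5, 26.5 and 107 CPM in the other 3. Library 4 of that group, with 107 CPM, lay between. Libraries 2 and 4 held 1065 and 3375 CPM of border macrophage markers, against 1042 to 2550 CPM in APOE3 untreated libraries, and 1790 and 1845 CPM of monocyte markers, against 1029 to 4547 CPM there. Of the 6 astrocyte markers, Aldh1l1 had a median of 37.2 CPM over the 28 libraries and no other had a median above 2.26 CPM. Astrocyte markers summed to 62.5 and 41.1 CPM in libraries 2 and 4, against 23.4 to 36.8 CPM in APOE3 untreated libraries, and the highest lymphocyte sum, 0.691 CPM, was that of library 2. Between title series, APOE3 untreated cells had median log2 differences, SAN minus second, of -1.47 for border macrophage, 1.41 for monocyte and 0.92 for astrocyte markers. The APOE3 ranges pool both series, while library 2 was SAN and library 4 second-series. The part of other cells in the levels of these 2 libraries was not tested. The members' APOE3S/S comparisons with untreated cells are also given without library 2.

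The genes lie on 4 chromosomes (GRCm38 with GENCODE M21): Isg15 on chromosome 4 from 156199424 to 156200818 (minus strand, 2 exons), Uba7 on chromosome 9 from 107975505 to 107984060 (plus strand, 24 exons), Ube2l6 on chromosome 2 from 84798828 to 84810335 (plus strand, 4 exons), and Herc6 on chromosome 6 from 57581000 to 57664632 (plus strand, 23 exons). Usp18 lies far from Herc6 on the same chromosome 6, from 121245906 to 121270917 (plus strand, 11 exons). The annotation lists genes that overlap Usp18, Uba7 and Herc6, but none of them exceeded 0.484 CPM in any library. Because type I interferon acts through ISGF3, a transcription factor complex that binds the interferon-stimulated response element, the 250 bases before the RefSeq start of each gene (GRCm38.p6) were searched for its core. RefSeq promoters were at hand for 4 of the 5 genes, not for Usp18. The windows with a match are shown because the genes changed together; capitals mark the match, and each window reads 5′ to 3′ on the gene's strand. Isg15 is shown from 120 to 1 bases before its start (chr4:156200819-156200938, minus strand) and Uba7 from 37 to 8 bases before its RefSeq start (chr9:107975530-107975559, plus strand).
Isg15: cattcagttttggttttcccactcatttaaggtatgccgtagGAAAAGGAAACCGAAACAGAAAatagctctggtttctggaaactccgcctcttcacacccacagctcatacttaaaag
Uba7: ctcagtctagTTTCACTTTtggtttcctga
The core searched was GAAANNGAAA on either strand. Isg15 held 3 overlapping copies of it between 78 and 57 bases before its start, and 2.98% of 32851 promoters held at least 1 copy in the same window. Uba7 held no copy of the core, but 1 match to the shorter AAANNGAAA, on the reverse strand between 27 and 19 bases before its RefSeq start, which 9.37% of promoters held. The GENCODE start of Uba7, 107975505, lies before the window shown, so by that annotation the match falls inside the gene. The windows of Ube2l6 and Herc6 held neither. Matches of a further motif of interferon-responsive promoters, TTCNNNGAA, found in 7.02% of promoters, were absent from all 4 windows. A match is a description of letters and not a measured binding site.

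All 5 genes rose with tau in APOE3 microglia. The modifier Isg15 measured 227, 75.1 and 153 CPM in APOE3 tau libraries 1 to 3 and 258, 314 and 318 CPM in libraries 4 to 6, against 22.2, 26.0, 19.2, 36.8, 52.7 and 54.7 CPM in APOE3 untreated libraries 1 to 6. The groups did not overlap, and the lowest tau library, number 2, stood below the other 5, which held 153 CPM or more. The fold change was 5.77 (log2 2.53 ± 0.49, SE; edgeR adjusted p = 0.00126). Its E1, Uba7, measured 111, 205 and 284 CPM (lowest, median and highest) in tau libraries, against 75.4, 93.6 and 106 CPM in untreated libraries. That was the smallest of the 5 changes, 2.12-fold (log2 1.08 ± 0.21, adjusted p = 0.00121). The E2, Ube2l6, measured 74.0, 164 and 209.5 CPM in tau libraries, against 43.5, 54.0 and 62.0 CPM in untreated libraries, a 2.65-fold increase (log2 1.40 ± 0.28, adjusted p = 0.00149).

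The E3 ligase Herc6 measured 36.9, 85.5 and 102 CPM (lowest, median and highest) in APOE3 tau libraries, against 14.2, 21.5 and 27.9 CPM in APOE3 untreated libraries. It rose 3.38-fold (log2 1.76 ± 0.29, adjusted p = 0.000395). The deconjugase Usp18 measured 54.9, 146 and 184 CPM in tau libraries, against 21.0, 28.7 and 33.7 CPM in untreated libraries, and rose 4.35-fold (log2 2.12 ± 0.35, adjusted p = 0.000395). For every member, every tau library lay above every untreated one, as was so for 3.10% of the 9748 genes with a mean of at least 5 CPM. All 5 rose, where 8.98% of the 13905 genes tested were called higher at an adjusted p under 0.05, and their median log2 change was 1.76 where that of all genes was -0.02. Each of the 5 remained called when any 1 library was left out, with log2 changes of 2.31 to 2.74 for Isg15 and 0.98 to 1.20 for Uba7. Astrocyte markers summed to 32.6 to 59.7 CPM in the tau libraries, against 23.4 to 36.8 CPM in the untreated ones. Of the 6 markers only 1 was called, Aldh1l1 (log2 0.64 ± 0.14, edgeR adjusted p = 0.00249), which had by far the highest level. Of the others, Slc1a2 (1.46 ± 0.58), Aqp4 (0.52 ± 0.47) and Gja1 (0.009 ± 0.61) had estimates above 0. Gfap (-0.26 ± 0.49) and S100b (-0.25 ± 0.66) had estimates below 0. The part of these markers in the result was not tested.

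**Figure D1:**
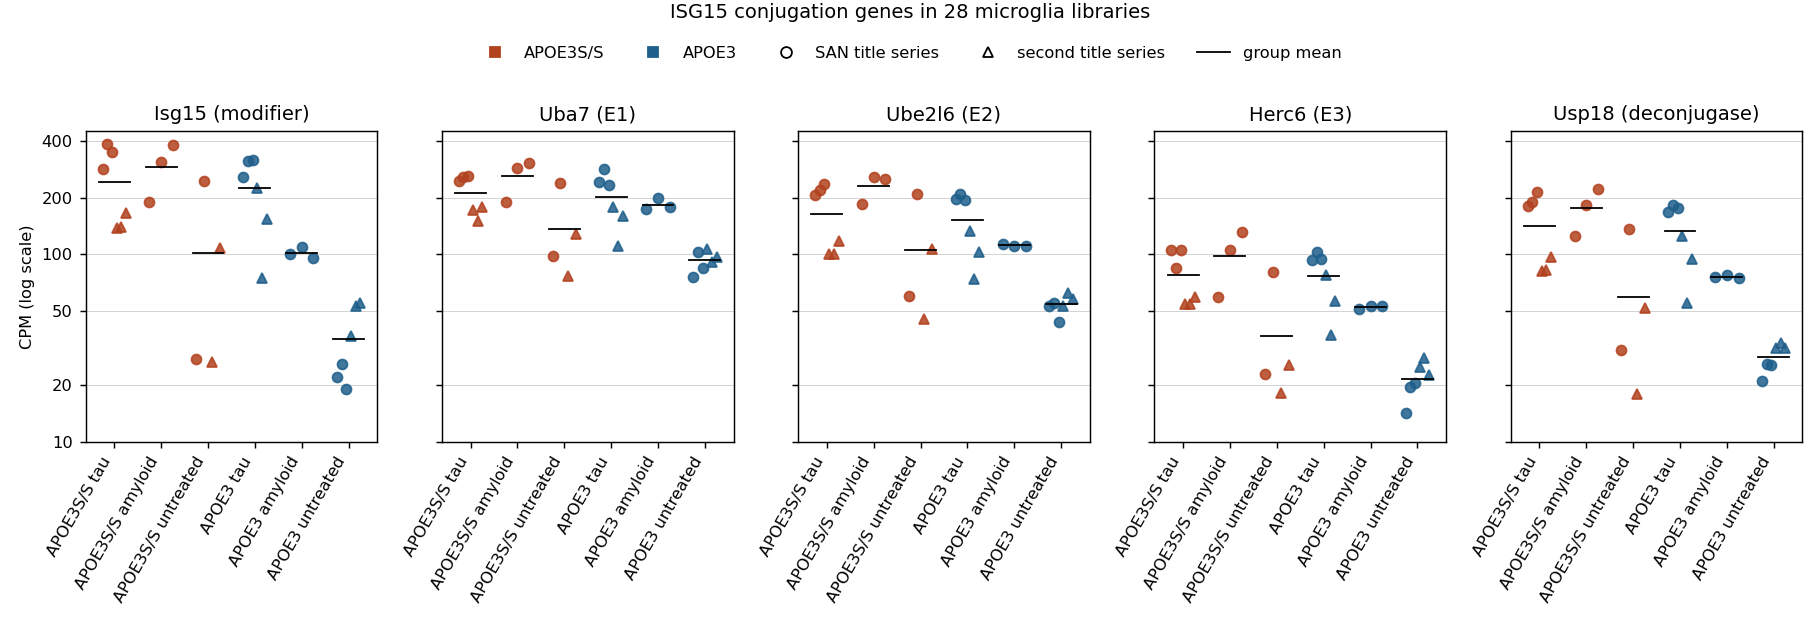
CPM (log axis) of each gene in every library, with 1 panel per gene and 1 column per group; circles are SAN and triangles second-series libraries, and black lines are group means. In each panel the 6 APOE3 tau libraries lie above the 6 APOE3 untreated ones, and 1 APOE3S/S untreated SAN library (number 2) lies among the treated libraries.

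Within APOE3, the estimated tau response of each member was larger in the SAN than in the second series, by a difference that no member passed on adjustment. Tested in the 11 SAN libraries of untreated and tau-treated cells alone, Isg15 was higher with tau by a log2 of 3.81 ± 0.58 (adjusted p = 0.000865), and in the 11 second-series libraries alone by 1.68 ± 0.43 (adjusted p = 0.0616). The log2 fold changes in SAN and then in second-series libraries were 2.95 ± 0.40 and 1.52 ± 0.33 for Usp18, 2.51 ± 0.35 and 1.20 ± 0.22 for Herc6, 2.07 ± 0.34 and 0.86 ± 0.27 for Ube2l6, and 1.62 ± 0.27 and 0.63 ± 0.20 for Uba7. All 5 were called in the SAN libraries, and Usp18 and Herc6 (adjusted p = 0.0288 and 0.0155) in the second series. Of all genes, 19% were called in the SAN and 2.55% in the second-series libraries. Within each series every tau library lay above every untreated one for all 5, as was so for 16.8% of genes in the SAN and 10.8% in the second-series libraries.

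The difference itself, SAN minus second, was 2.11 ± 0.77 for Isg15, 1.41 ± 0.55 for Usp18, 1.29 ± 0.44 for Herc6, 1.19 ± 0.47 for Ube2l6 and 0.97 ± 0.35 for Uba7 on the log2 scale. None passed adjustment in edgeR (adjusted p = 0.0971 to 0.159), all 5 had an unadjusted p under 0.05, and 5.19% of 14614 genes were called. Without APOE3 tau library 1, Herc6 passed (adjusted p = 0.0474; 4.72% of genes called). Part of the difference sat in the untreated cells, where Isg15 measured 22.2, 26.0 and 19.2 CPM in SAN libraries and 36.8, 52.7 and 54.7 CPM in second-series libraries. That was a log2 difference of -1.16 ± 0.55 (unadjusted p = 0.0491, adjusted p = 0.168), and the other 4 genes differed by -0.55 to -0.22. No member was called in edgeR or DESeq2, against 15.4% of all genes. The title series also differed in depth (16.8 ± 1.25 M counts in SAN and 22.5 ± 3.88 M counts in second-series libraries, SD, where M stands for 1000000), and the part of that in the result was not tested.

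**Figure D2:**
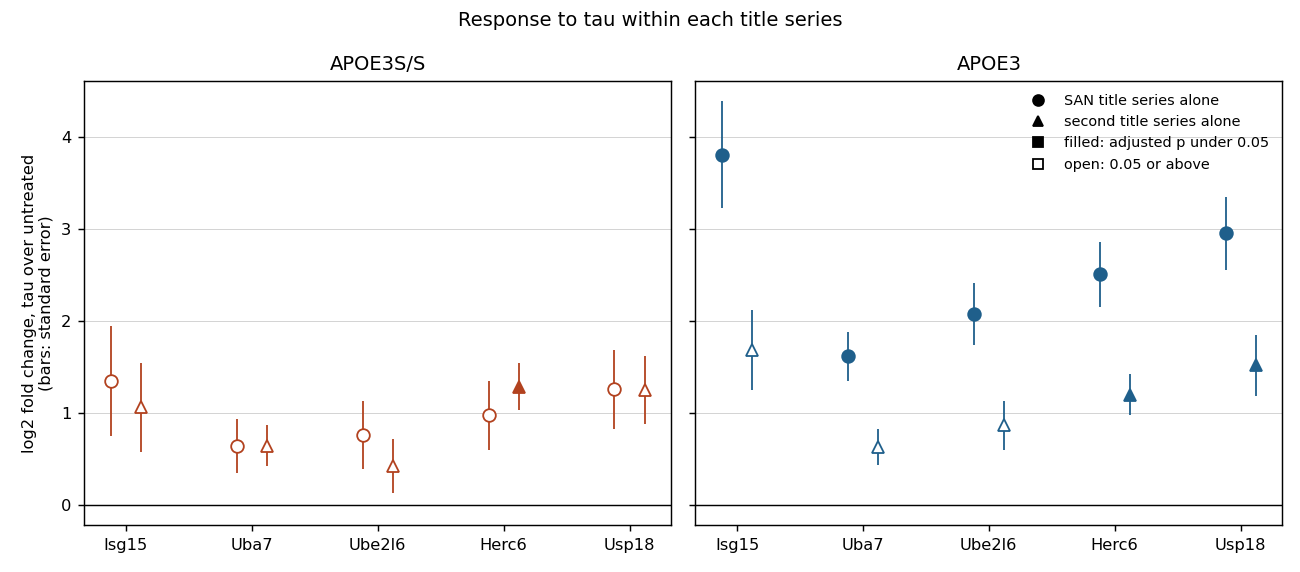
Log2 fold change of tau over untreated (bars: standard error) in SAN libraries alone (circles) and second-series libraries alone (triangles), APOE3S/S in the left panel and APOE3 in the right; filled symbols have an adjusted p under 0.05. In APOE3 each gene lies higher in the SAN libraries, Isg15 at 3.81 and 1.68, while in APOE3S/S the error bars of the 2 symbols overlap for every gene.

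In APOE3S/S microglia, tau-treated libraries held the 5 genes at means near those of APOE3, while the untreated libraries were spread widely. Isg15 measured 139, 139.8, 165, 284, 385 and 352 CPM in APOE3S/S tau libraries 1 to 6, against 27.5, 245, 26.5 and 107 CPM in untreated libraries 1 to 4. Untreated library 2 overlapped the tau group of both title series together for every gene, with 240.3 CPM of Uba7, 209 CPM of Ube2l6, 79.9 CPM of Herc6 and 137 CPM of Usp18. Within each title series (3 tau and 2 untreated libraries), every tau library lay above every untreated one for Isg15, Usp18, Uba7 and Herc6. Ube2l6 overlapped in both series. The share of genes wholly higher with tau was 14.7% in the SAN and 21.8% in the second-series libraries. Untreated libraries 1 and 3 lay below every tau library for all 5 genes. In the tau libraries the lowest, median and highest values were 151, 212 and 263 CPM for Uba7 and 100.4, 162 and 237 CPM for Ube2l6. For Herc6 they were 54.2, 71.8 and 106 CPM, and for Usp18 81.7, 139 and 214 CPM. The highest and lowest of the 4 untreated libraries differed 9.26-fold in Isg15, 7.62-fold in Usp18, 4.61-fold in Ube2l6, 4.39-fold in Herc6 and 3.14-fold in Uba7. The same ratios over the 6 untreated APOE3 libraries were 2.85, 1.61, 1.42, 1.96 and 1.41.

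No member was called for tau in APOE3S/S by edgeR, where 3.28% of 13905 genes were. Herc6 came closest (log2 1.11 ± 0.32, adjusted p = 0.0573), then Usp18 (1.26 ± 0.38, adjusted p = 0.0684), Uba7 (0.64 ± 0.23, adjusted p = 0.125), Isg15 (1.24 ± 0.53, adjusted p = 0.194) and Ube2l6 (0.61 ± 0.31, adjusted p = 0.281). Of the 5, 4 had an unadjusted p under 0.05, and DESeq2 called Herc6 (adjusted p = 0.0265) and Usp18 (adjusted p = 0.0339), along with 6.8% of genes. With no filter on low counts, edgeR called all 5 and 5.08% of genes. Without untreated library 2, edgeR called 4: Isg15 (2.05 ± 0.57, adjusted p = 0.0373), Usp18 (1.88 ± 0.38, adjusted p = 0.00623), Uba7 (0.97 ± 0.23, adjusted p = 0.0151) and Herc6 (1.69 ± 0.29, adjusted p = 0.00227), where 5.91% of genes were called. Ube2l6 stayed short of the threshold (1.01 ± 0.32, adjusted p = 0.0657). Within the second series alone, which lacks library 2, Herc6 passed (1.29 ± 0.26, adjusted p = 0.025; 2.26% of genes called). Over all genes, 456 were called in this comparison with all libraries; leaving out untreated libraries 1 to 4 in turn gave 34, 836, 262 and 302, and leaving out tau library 2, 4 or 6 gave 249, 134 and 91.

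Whether the genotypes differed in their tau response was tested as an interaction. APOE3S/S minus APOE3, the log2 responses differed by -1.29 ± 0.68 for Isg15, -0.86 ± 0.50 for Usp18, -0.80 ± 0.41 for Ube2l6, -0.65 ± 0.42 for Herc6 and -0.44 ± 0.31 for Uba7. No member passed (edgeR adjusted p = 1.00 for each), none had an unadjusted p under 0.05, and 0% of genes were called by edgeR or DESeq2, with 284 genes at an unadjusted p under 0.05. With no filter on low counts, edgeR called 4 of the 5 and 0.525% of 28368 genes. Without untreated library 2 the differences were -0.58, -0.29, -0.42, -0.10 and -0.13 in the same order. Between the title series, the tau response of APOE3S/S cells differed by log2 values, SAN minus second, from -0.31 ± 0.48 (Herc6) to 0.34 ± 0.52 (Ube2l6), with 0 of 5 called or under an unadjusted p of 0.05 in edgeR, 0 of 5 called by DESeq2, and 0.903% of genes called. Without untreated library 2 it reached 2.66 for Isg15, which then passed (adjusted p = 0.0455; 3.56% of genes called).

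**Figure D3:**
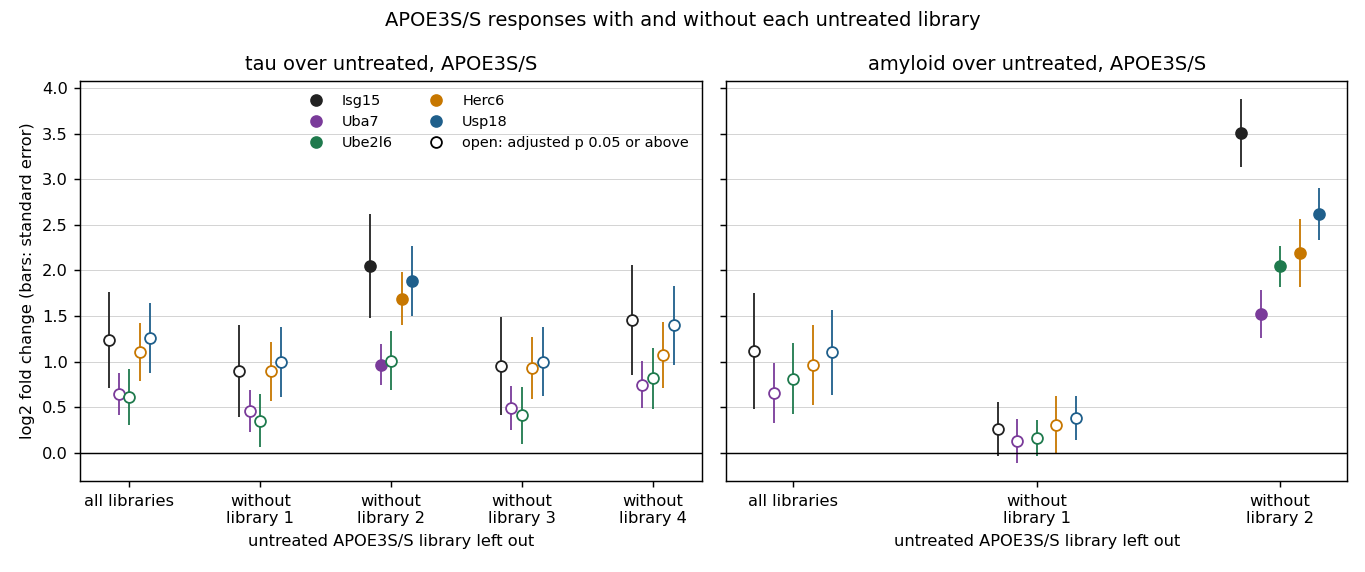
Log2 fold change of tau (left) and amyloid (right) over untreated in APOE3S/S microglia, with all libraries and with each untreated library left out; bars are standard errors and filled symbols have an adjusted p under 0.05. Leaving out library 2 gives the only filled symbols, 4 of 5 genes for tau and 5 of 5 for amyloid; after it, untreated cells of the amyloid comparison are 1 library.

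The genotypes were then compared at each treatment. With tau, Isg15 averaged 244 ± 111 CPM in APOE3S/S and 224 ± 95.2 CPM in APOE3 (SD, n = 6 each), and Usp18 averaged 141 ± 60.7 CPM in APOE3S/S and 134 ± 51.8 CPM in APOE3. The log2 differences ran from -0.01 ± 0.27 (Herc6) to 0.09 ± 0.45 (Isg15), and 0 of 5 were called or had an unadjusted p under 0.05 in edgeR, 0 by DESeq2, against 0.0144% of genes called. Standard errors of 0.20 to 0.45 mean that equal levels were not shown. Without tau or amyloid, Isg15 averaged 102 ± 103 CPM in APOE3S/S (n = 4) and 35.3 ± 15.5 CPM in APOE3 (n = 6), a log2 difference of 1.383 ± 0.52 (adjusted p = 0.642). The other differences were 0.91 ± 0.37 for Usp18, 0.89 ± 0.30 for Ube2l6, 0.64 ± 0.32 for Herc6 and 0.51 ± 0.23 for Uba7. None was called by edgeR or DESeq2, 4 of 5 had an unadjusted p under 0.05, and 0.00719% of genes were called. With no filter on low counts, edgeR called all 5 and 1.21% of genes. The groups overlapped for each gene, and without library 2 the differences were 0.69, 0.34, 0.51, 0.10 and 0.20 in the same order as above.

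Amyloid-treated APOE3 libraries were tight and lay above their controls. Isg15 measured 101, 109 and 95.4 CPM with amyloid, against 22.2, 26.0 and 19.2 CPM in the untreated SAN libraries, a log2 difference of 2.17 ± 0.58. Usp18 measured 75.7, 77.3 and 74.9 CPM with amyloid, against 21.0, 25.9 and 25.7 CPM untreated, a difference of 1.64 ± 0.42. For both genes the treated libraries lay close together and clear of the untreated ones. For Herc6 the values were 50.9, 53.3 and 53.1 CPM with amyloid, against 14.2, 19.6 and 20.5 CPM untreated (1.53 ± 0.40). Ube2l6 had 113, 111 and 111 CPM with amyloid, against 53.2, 54.8 and 43.5 CPM untreated (1.13 ± 0.35), and Uba7 had 175, 199 and 178 CPM with amyloid, against 75.4, 103 and 84.7 CPM untreated (1.06 ± 0.29). No group overlapped its control for any of the 5, as was so in this direction for 14.5% of genes. Astrocyte markers summed to 43.7 to 70.9 CPM in the 3 amyloid libraries, against 23.4 to 36.8 CPM in all 6 APOE3 untreated libraries. Over all libraries, 3 of the 6 markers had a median under 1 CPM, and Aldh1l1 had the highest, 37.2 CPM. The part of these markers in the result was not tested.

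None of these differences was called when the 4 groups of the table shared 1 estimate of spread (edgeR adjusted p = 0.212 to 0.232; 0% of 13867 genes called), although each had an unadjusted p under 0.05. Without a filter on low counts edgeR called all 5 and 3.92% of genes. It also called all 5 in the amyloid comparisons described next, within APOE3S/S (2.59% of genes) and between genotypes (2.88%). DESeq2 called 4 of 5 and 2.13% of genes, with Herc6 at an adjusted p of 0.0506. With only these 2 groups in the fit, edgeR called all 5 (adjusted p = 0.000145 to 0.00166) at the same sizes and with standard errors of 0.10 to 0.13; 575 genes were then called, 4.44% of those tested.

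With amyloid, APOE3S/S libraries had a higher mean of each of the 5 transcripts than APOE3 libraries. Isg15 measured 191, 308 and 381 CPM in APOE3S/S and 101, 109 and 95.4 CPM in APOE3. Ube2l6 measured 186, 258 and 252 CPM in APOE3S/S, against 113, 111 and 111 CPM in APOE3. Usp18 measured 125, 182 and 224 CPM in APOE3S/S, against 75.7, 77.3 and 74.9 CPM in APOE3, and Herc6 measured 59.2, 105 and 131 CPM in APOE3S/S, against 50.9, 53.3 and 53.1 CPM in APOE3. Groups did not overlap for Isg15, Ube2l6, Herc6 and Usp18, and did for Uba7 (189, 287 and 307 CPM in APOE3S/S, against 175, 199 and 178 CPM in APOE3), where 9.91% of genes lay wholly higher in APOE3S/S. The log2 differences were 1.61 ± 0.56 for Isg15, 1.31 ± 0.41 for Usp18, 1.14 ± 0.34 for Ube2l6, 1.00 ± 0.38 for Herc6 and 0.59 ± 0.29 for Uba7. None was called in the fit of 11 libraries (edgeR adjusted p = 0.380 to 0.432; 0% of genes called; 4 of 5 at an unadjusted p under 0.05), nor by DESeq2. With the 2 groups alone, Isg15 and Usp18 (adjusted p = 0.0203 each) and Ube2l6 (adjusted p = 0.0202) were called, as were 2.71% of genes.

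Against their own untreated libraries, of which there were 2 in the SAN series, the APOE3S/S amyloid libraries were higher by a log2 of 1.11 ± 0.63 for Isg15, 1.10 ± 0.46 for Usp18, 0.96 ± 0.44 for Herc6, 0.81 ± 0.39 for Ube2l6 and 0.66 ± 0.33 for Uba7. No member was called by edgeR (0% of genes called, 1 of 5 at an unadjusted p under 0.05) or by DESeq2. Without untreated library 2, which leaves 1 control library assumed to vary like the other groups, all 5 were called, from 1.52 ± 0.26 for Uba7 to 3.51 ± 0.37 for Isg15 (adjusted p = 0.00117 to 0.0104), and 2.91% of genes were called. The interaction turned sign with that library: APOE3S/S minus APOE3, it was -1.05 ± 0.83 for Isg15, -0.57 ± 0.58 for Herc6, -0.54 ± 0.61 for Usp18, -0.40 ± 0.43 for Uba7 and -0.32 ± 0.51 for Ube2l6 with all libraries. Without library 2 it was 1.34, 0.66, 0.97, 0.46 and 0.91. No member was called either way by edgeR (0% of genes with all libraries, 514 genes and 0 members at an unadjusted p under 0.05) or with all libraries by DESeq2.

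**Figure D4:**
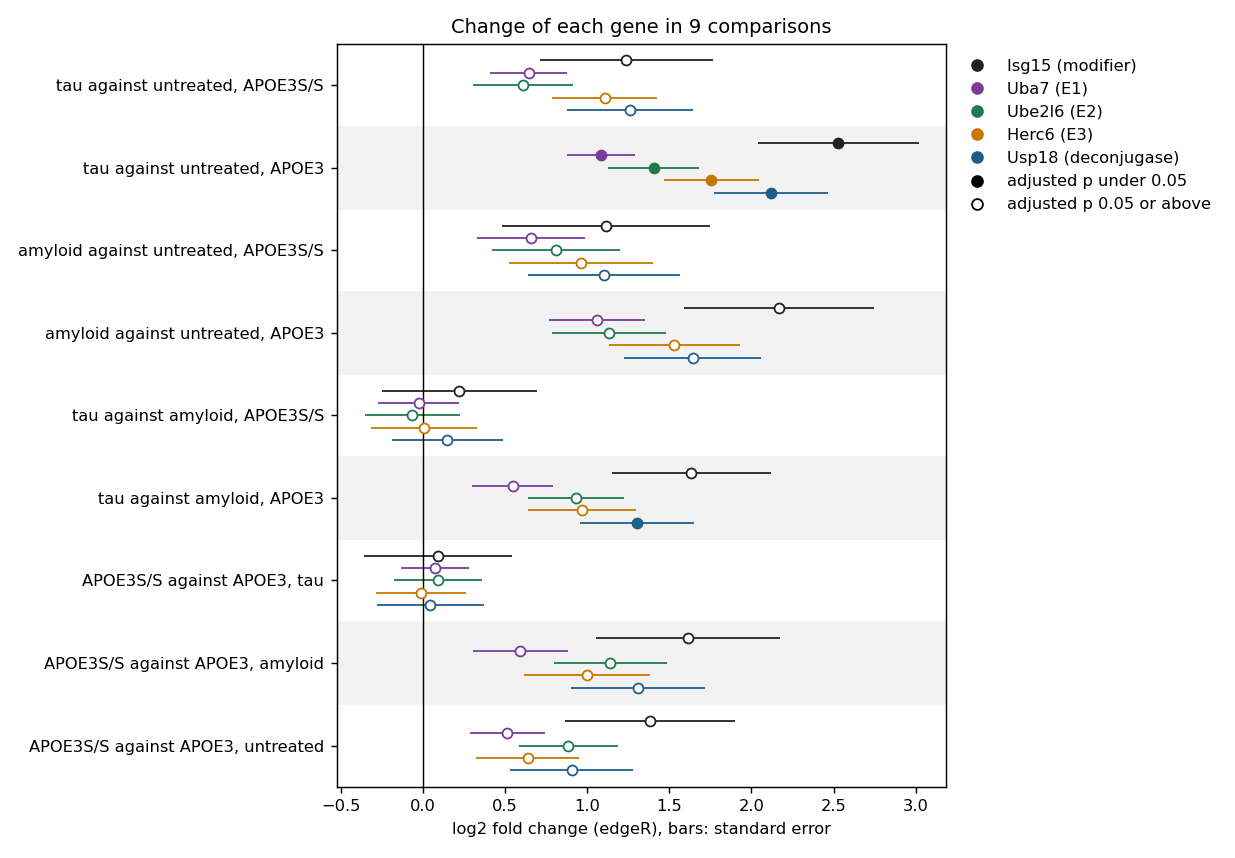
Log2 fold change (x axis, bars: standard error) of each gene in 9 comparisons (y axis), filled where the adjusted p is under 0.05. All 5 symbols are filled for tau against untreated in APOE3, 1 is filled for tau against amyloid in APOE3, and no other comparison has a filled symbol.

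Tau and amyloid were compared directly in the SAN libraries. In APOE3, Isg15 measured 258, 314 and 318 CPM with tau, against 101, 109 and 95.4 CPM with amyloid, and Usp18 measured 167, 184 and 177 CPM with tau, against 75.7, 77.3 and 74.9 CPM with amyloid. Every tau library lay above every amyloid library for all 5 genes, as for 17.8% of genes. Usp18 was called (log2 1.30 ± 0.35, adjusted p = 0.0354), and 4.13% of 14131 genes were called higher with tau. Isg15 (1.63 ± 0.48, adjusted p = 0.0510), Ube2l6 (0.93 ± 0.29, adjusted p = 0.0641), Herc6 (0.97 ± 0.33, adjusted p = 0.0844) and Uba7 (0.55 ± 0.25, adjusted p = 0.196) missed the threshold. The call of Usp18 was lost on leaving out any 1 of the 6 compared libraries (adjusted p = 0.0621 to 0.123), and the 1036 genes called in either direction numbered 58 to 572 without 1 of them. DESeq2 called 4 members, where 11.3% of genes were called, and the 2 groups fitted alone gave 5, where 27.9% were. In APOE3S/S, Isg15 measured 284, 385 and 352 CPM with tau and 191, 308 and 381 CPM with amyloid, and the log2 differences ran from -0.06 ± 0.29 (Ube2l6) to 0.22 ± 0.47 (Isg15). There 0 of 5 were called or had an unadjusted p under 0.05 in edgeR, 0 by DESeq2, and 0.149% of genes were called.

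Whether the 5 genes changed by unequal amounts was tested within libraries as the log2 ratio of each gene to Isg15 (CPM + 0.5), with an exact permutation test, two-sided, that exchanged libraries within a title series. These are differences of ratios and not of levels. In APOE3 the Uba7 to Isg15 log2 ratio averaged -0.07 ± 0.36 with tau and 1.49 ± 0.57 untreated (SD, n = 6 each), a difference of -1.56 (exact p = 0.005, 0.02 after Benjamini-Hochberg over 8 tests). For Ube2l6 the averages were -0.51 ± 0.27 with tau and 0.71 ± 0.51 untreated, a difference of -1.22 (exact p = 0.005, adjusted 0.02). The Herc6 ratio differed by -0.86 (exact p = 0.01, adjusted 0.02) and the Usp18 ratio by -0.49 (exact p = 0.03, adjusted 0.04). In APOE3 each of the 4 transcripts changed less than that of the modifier, and Usp18 came closest to it.

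The difference lay in the same direction in each title series of APOE3: for Uba7 -2.17 in SAN and -0.95 in second-series libraries, and for Usp18 -0.86 and -0.13. The Usp18 ratio lost its call on leaving out any of 6 libraries. In APOE3S/S the Ube2l6 ratio differed by -0.95 (exact p = 0.01, adjusted 0.02, the smallest p that its 100 arrangements allow) and the Uba7 ratio by -0.998 (exact p = 0.02, adjusted 0.032). The Herc6 and Usp18 ratios differed by -0.48 (exact p = 0.28, adjusted 0.32) and -0.20 (exact p = 0.44, adjusted 0.44). Without untreated library 2, the Ube2l6 ratio differed by -1.28 (exact permutation test, adjusted p = 0.048), that of Uba7 by -1.46 (adjusted p = 0.0667), that of Herc6 by -0.82 (adjusted p = 0.143) and that of Usp18 by -0.46 (adjusted p = 0.175). The Uba7 call was also lost without untreated library 1 (-0.54) or 3 (-0.69), at the same adjusted p of 0.0667. Leaving out an untreated library leaves fewer than 100 arrangements, which raises the smallest p that can be reached. A lost call therefore need not mean a smaller difference, and without library 2 the Uba7 difference was larger than with all libraries.

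**Figure D5:**
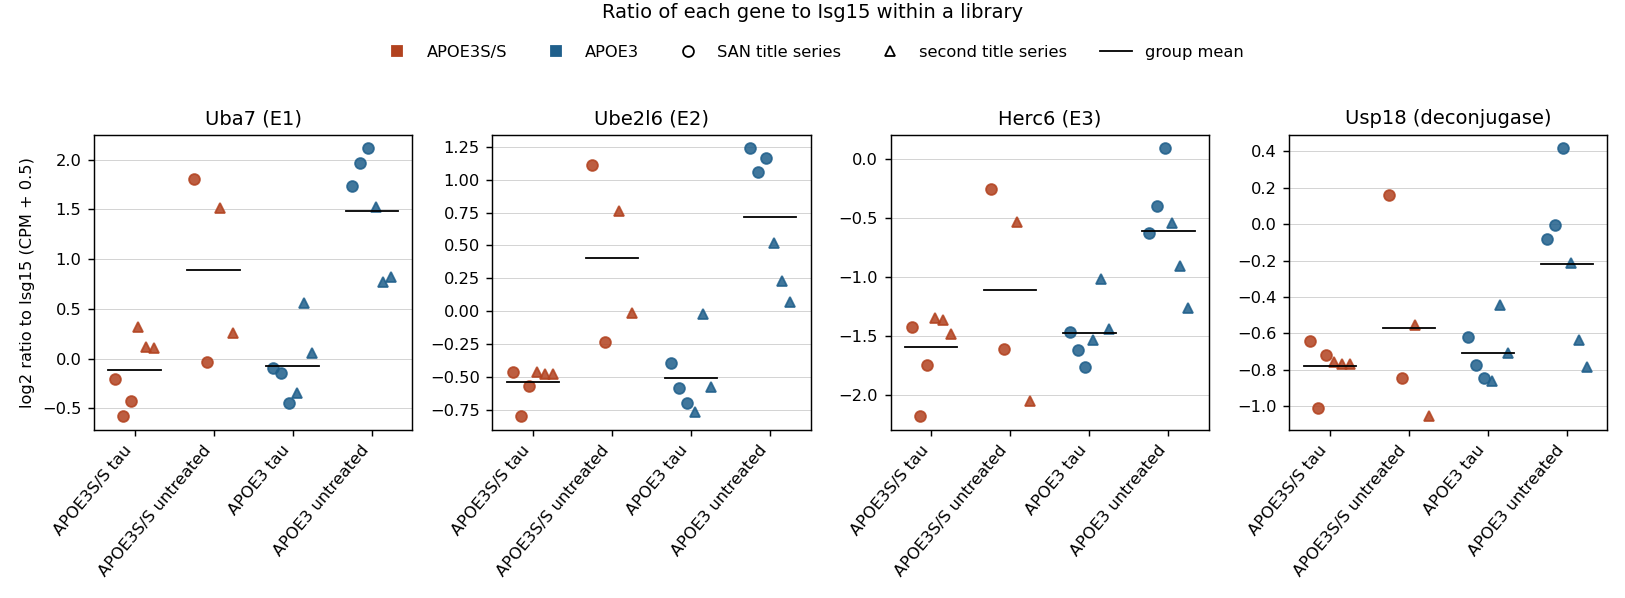
Log2 ratio of each gene to Isg15 in every tau and untreated library (CPM + 0.5), 1 panel per gene with its own axis; circles are SAN and triangles second-series libraries, and black lines are group means. The Uba7 and Ube2l6 means of APOE3 tau libraries, -0.07 and -0.51, lie below those of untreated ones, 1.49 and 0.71.

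Across the 28 libraries the 5 genes followed each other closely. Pearson's r between pairs on log2(CPM + 0.5) was 0.949 to 0.986, and after subtracting the mean of each group and title series it was 0.838 to 0.981. These are descriptions over libraries that share treatments and genotypes. Other genes lay closer still among the 9743 compared (mean of at least 5 CPM, members left out): Isg15 was most like Zbp1 (r = 0.994), Tor3a (0.989) and Ifit3 (0.987), and Usp18 most like Oasl1 (0.995), Ifit1 (0.994) and Phf11d (0.993). Uba7 was most like Trafd1 (0.989), Samhd1 (0.986) and Tapbp (0.986), Ube2l6 most like Igtp (0.989), Rnf114 (0.984) and Phf11b (0.983), and Herc6 most like Ifih1 (0.995), Ddx58 (0.994) and Irgm2 (0.990). The member nearest to Isg15 was Usp18, at rank 14 of 9747 genes, and the member nearest to Usp18 was Herc6, at rank 11.

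Around the cascade, the genes that carry the interferon signal moved in part. For scale in this and the later lists, 8.98% of all 13905 genes tested were called higher with tau in APOE3 (1248 genes), and 816 genes fell. In APOE3S/S, edgeR called 3.28% of all genes in either direction and DESeq2 called 6.8%. Of 7 receptor and ISGF3 genes, 4 rose with tau in APOE3 and none fell, with a median log2 change of 0.36, among them Stat2 (1.37 ± 0.25, adjusted p = 0.000905), Tyk2 (0.49 ± 0.11, adjusted p = 0.00397) and Irf9 (0.36 ± 0.08, adjusted p = 0.00366). Irf9 lost its call in the second series alone. The receptor genes Ifnar1 and Ifnar2 and the kinase Jak1 were not called (0.08 to 0.17). In APOE3S/S edgeR called none of the 7, with a median of 0.23 and Stat2 nearest (0.92 ± 0.28, adjusted p = 0.0759); 5 had an unadjusted p under 0.05, and DESeq2 called 3, all higher. Among interferon genes, Ifna1, Ifna2 and the others of 8 were too low to test except Ifnb1, the gene of interferon beta, which was itself near the floor.

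Ifnb1 had 46 counts in the 6 APOE3 tau libraries and 12 counts in the 3 APOE3 amyloid libraries, against 0 counts in the 6 APOE3 untreated libraries, which allows up to 0.0275 CPM there (3 counts over the group, counting error only). In CPM that was at least 14.3-fold higher with tau. For amyloid, Ifnb1 was not called in APOE3 (edgeR adjusted p = 0.275). The adjusted p for tau was 0.0216 in edgeR and 0.0503 without tau library 1, which held 17 of the counts, and the call was also lost in the second series alone. In APOE3S/S there were 62 counts in 6 tau libraries and 33 in 3 amyloid libraries, against 0, 4, 0 and 19 in untreated libraries 1 to 4 (edgeR adjusted p = 0.779 for tau, 0.899 without untreated library 2 and 0.174 without library 4). The untreated libraries with Ifnb1 counts, 2 and 4, were those with the highest Isg15, and the part of Ifnb1 in those levels was not tested.

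Of 10 further genes of ISG15 handling, 9 could be tested, and in APOE3 with tau 3 rose and 2 fell, with a median of 0.09. Of all 13905 genes tested, 1248 rose and 816 fell. Itgal, a chain of LFA-1, the receptor for secreted ISG15, rose by 0.92 ± 0.13 (adjusted p = 0.000184; lost without a term for title series), and the E3 ligase Trim25 by 0.50 ± 0.10 (adjusted p = 0.00124). Stat2, through which USP18 reaches the receptor, is given above. Usp2 (-0.67 ± 0.18, adjusted p = 0.0151) and Usp14 (-0.24 ± 0.07, adjusted p = 0.0147), proteases reported to bind ISG15, fell. Arih1, the human counterpart of which is an ISG15 ligase, was not called (-0.07 ± 0.10). In APOE3S/S, Itgal (0.68 ± 0.15, adjusted p = 0.0194) and Trim25 (0.42 ± 0.11, adjusted p = 0.0368) rose and none fell, where 3.28% of all genes were called. Both calls were lost without a term for title series (adjusted p = 0.583 for Itgal and 0.228 for Trim25) and without untreated library 1 (0.0894 and 0.0755) or 4 (0.0504 and 0.102), that of Trim25 also without library 3 (0.106), and both held without library 2 (0.00439 and 0.00633).

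Among 13 reported substrates of ISG15, 4 rose in APOE3 and none fell, with a median of 0.04, where 8.98% of all genes were called higher. Those that rose are themselves interferon-inducible and include Mx1 (2.46 ± 0.50, adjusted p = 0.00178), the RNA sensor Ddx58 (1.54 ± 0.25, adjusted p = 0.000368) and the kinase Eif2ak2 (0.96 ± 0.18, adjusted p = 0.000953). In APOE3S/S, Ddx58 was called (1.11 ± 0.28, adjusted p = 0.0351), but not without a term for title series (adjusted p = 0.214) or without untreated library 1, 3 or 4 (0.117, 0.0942 and 0.0702); without library 2 it was called at 1.62 ± 0.25 (adjusted p = 0.00139). These levels are of transcripts and say nothing of how much of each protein carries ISG15.

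The genes of other ubiquitin-like systems were counted in the same way. Of 23 tested genes for ubiquitin, SUMO, NEDD8 and similar modifiers and their enzymes, 0 rose and 1 fell in APOE3 by edgeR, with a median of -0.05, while 5 had an unadjusted p under 0.05 and DESeq2 called 4, of which 3 were higher. Uba2, the catalytic chain of the SUMO E1, fell by 0.21 on the log2 scale (SE 0.05, adjusted p = 0.00929), and lost its call in each title series alone. The ubiquitin E1 Uba1 (0.23 ± 0.08, adjusted p = 0.0515) and the NEDD8 E2 Ube2f (0.34 ± 0.12, adjusted p = 0.0558) came next. Among 5 tested relatives of the members, 0 were called by edgeR (adjusted p = 0.0643 to 0.995), 1 had an unadjusted p under 0.05 and 1 was called by DESeq2, with a median of 0.05: Ube2l3, the nearest relative of Ube2l6, had a log2 difference of -0.0013 ± 0.07, and Herc3, Herc2 and Herc4 had 0.34 ± 0.12, 0.28 ± 0.15 and 0.05 ± 0.07. Of 20 other USP proteases 3 rose and none fell, with a median of 0.04, where 8.98% of all genes were called higher. A list of 20 is too short to tell such a count from that share. The 3 were Usp25 by 0.52 ± 0.12 (adjusted p = 0.00544), Usp3 by 0.31 ± 0.06 (adjusted p = 0.00102) and Usp12 by 0.26 ± 0.08 (adjusted p = 0.0421). None of the 3 was called in the second series alone, and Usp12 also lost its call on leaving out any of 7 libraries. In APOE3S/S, Usp25 (adjusted p = 0.0485) and Usp3 (adjusted p = 0.0346) rose and none of the 20 fell. Neither was called without a term for title series (adjusted p = 0.238 for Usp25 and 0.598 for Usp3) or without untreated library 1 (0.133 and 0.121) or 3 (0.0794 and 0.0906), nor Usp25 without library 4 (0.131), and both were called without library 2 (0.00491 and 0.0238). In that genotype 0 genes of the modifier and relative lists were called by edgeR or DESeq2, with 3 and 1 at an unadjusted p under 0.05. The median over all genes tested was -0.02 in APOE3 and -0.01 in APOE3S/S. In APOE3S/S edgeR called 3.28% of all genes, and DESeq2 called 17.6% in APOE3 and 6.8% in APOE3S/S, in either direction.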

How the data were processed

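The deposited values are 2 tables of gene counts, whole numbers that the authors made from QuantSeq 3′ forward libraries per the labels' protocols: 22 libraries (untreated and tau) and 11 (untreated and amyloid), of which 5 untreated libraries stand in both tables with identical values and were used once. The submitters' processing notes name GRCm38 (mm10) and DESeq2 1.38.3; the aligner, the counter and its strand setting were not given in the sources used here. Of 60976 entries per table, 6360 held no number and 189 repeated a symbol and were left out, which kept 54427. Levels are CPM over all kept counts, computed here, and are not compared between genes.

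Tests used edgeR 4.0.16 in R 4.3.3 (glmQLFit, glmQLFTest; TMM; filterByExpr by group), adjusted by Benjamini-Hochberg over every tested gene, and calls were made at an adjusted p under 0.05. The SE given for edgeR is approximate: the absolute log2 change divided by the square root of its F statistic. Tau and genotype contrasts used 22 libraries with a term for title series, amyloid contrasts the 11 libraries, tau against amyloid the 17 SAN libraries, and series contrasts a mean per genotype, treatment and series. The fits for tau, amyloid and tau against amyloid in APOE3 were first run on simulated counts. Of 100 genes changed 2-fold, 81, 62 and 68 were recovered in that order, and of 100 changed 4-fold, 92, 76 and 86. The simulated counts held no title-series or genotype difference and no outlying library, so they do not show how the fits behave with these. No 2 libraries were identical among 378 pairs, and replicates differed beyond counting noise (chi-square per gene 4.22 to 77.5 over 26 pairs). Named genes were the members, up to 3 genes with the smallest p in each list for tau in APOE3, and the 3 genes most like each member. Tyk2, Mx1, Usp2, Usp14, Arih1, Ifnar1, Ifnar2, Jak1, Ube2l3, Aldh1l1, Slc1a2, Aqp4, Gja1, Gfap and S100b were named after their values were seen. Some listed genes enter the counts but are not reported here by name. Members and lists were chosen with earlier results of these data known. Alternatives were RLE scaling, no or another low-count filter, DESeq2 1.42.0, each library left out, each title series alone or no series term, other sets of libraries, and a replicate block; for ratios, pseudocounts of 0.1 and 2 CPM.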

Additional observations from a re-analysis of the deposited data

Results flagged for a closer look

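In 20 combinations of gene and group of 4 to 10 libraries, 1 library lay apart by Dixon's criterion: Herc6 measured 79.9 CPM in APOE3S/S untreated library 2, against 23.0, 18.2 and 25.6 CPM in the other 3. Chance marks about 1 in 20 such combinations. The same library was also the highest of its group for the other 4 genes. It held 7483 CPM of microglial markers, within the range of the other libraries, and 4 counts of Ifnb1; their part in the level was not tested.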

How the results depend on the processing

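The 5 tau calls in APOE3 held under every alternative run except in the second title series alone, where 2 members were called. In APOE3S/S, tau calls numbered 0 with all libraries, 2 by DESeq2, 1 in the second series alone, 5 with no low-count filter and 0 to 4 on leaving out 1 library. Without that filter, edgeR also called members elsewhere, given here with the share of all genes called. It called 4 for the tau interaction (0.525%), 5 between untreated genotypes (1.21%), 5 for amyloid in APOE3 (3.92%) and 5 for amyloid in APOE3S/S (2.59%). Further calls were 1 for the amyloid interaction (0.292%), 5 between genotypes with amyloid (2.88%) and 5 for tau against amyloid in APOE3 (7.07%). The series difference in APOE3 gave 5 (4.93%) and the untreated series of APOE3 gave 3 (8.5%). For amyloid in APOE3, DESeq2 called 4, all 17 SAN libraries 2 and the 2 groups alone 5. Tau against amyloid in APOE3 gave 4 by DESeq2, 5 with the 2 groups alone and 0 to 0 members on leaving out any 1 of its libraries. Leaving out 1 library gave 0 to 5 for amyloid in APOE3S/S and 0 to 1 for the series difference in either genotype.

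The labels do not say whether the numbers in the titles pair the genotypes, and groups of 2 or 3 libraries are too small to settle it. Correlations of same-numbered deviations were -0.21 to 0.32. SAN tau number 4 (0.32) and amyloid number 7 (0.24) were most like their own number in both directions, and not every library was. With the replicate block, 3 members were called between genotypes with amyloid, as with the 2 groups alone and with the same libraries and groups without the block, an alternative added after the data were seen; 198 genes were called with the block and 352 without it. The block changed no other count of members called.

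Listed here are estimates that turned sign, none of them called in either form unless stated in the report, and ratios that turned sign or lost a call. Not all were near 0, as the amyloid interaction of Isg15 was -1.05 with all libraries. Between genotypes with tau, leaving out 1 library gave -0.068 to 0.19 for Isg15, -0.083 to 0.13 for Usp18, -0.030 to 0.15 for Uba7, -0.017 to 0.16 for Ube2l6 and -0.13 to 0.080 for Herc6; the second series alone gave -0.069 for Isg15 and -0.10 for Usp18, and Herc6 was 0.029 in SAN alone and 0.017 with the block. In the second series alone, Herc6 was -0.15 between untreated genotypes, and the tau interaction 0.086 for Herc6 and 0.012 for Uba7. For the amyloid interaction, leaving out 1 library gave -1.90 to 1.34 (Isg15), -1.26 to 0.97 (Usp18), -0.93 to 0.46 (Uba7), -0.97 to 0.91 (Ube2l6) and -1.22 to 0.66 (Herc6). For tau against amyloid in APOE3S/S it gave -5.8e-05 to 0.45 (Isg15), -0.039 to 0.35 (Usp18), -0.20 to 0.10 (Uba7), -0.19 to 0.019 (Ube2l6) and -0.25 to 0.26 (Herc6). For the series difference in APOE3S/S it gave -1.11 to 2.66 (Isg15), -1.001 to 1.504 (Usp18), -0.54 to 0.84 (Uba7), -0.46 to 1.55 (Ube2l6) and -0.97 to 0.90 (Herc6). There, Uba7 was -0.019 under RLE scaling, -0.020 by DESeq2, -0.029 with a filter at 5 CPM and -0.0096 without a filter, and Usp18 was -0.0089, -0.015 and -0.018 under the first 3. The ratio of Usp18 to Isg15 gave -0.55 to -0.41 in APOE3 and -0.46 to 0.047 in APOE3S/S, and that of Uba7 -1.46 to -0.54 in APOE3S/S.

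Counts of all genes called moved by over 1.5 times too: for tau in APOE3, 2064 genes were called, against 846 without a series term and 372 in the second series alone. For tau in APOE3S/S, 456 were called, against 0 without a series term, 262 with the 2 groups alone, 945 by DESeq2, 1441 without a filter and 34 to 836 on leaving out 1 library. Without a filter, counts of 0 for the tau interaction, amyloid in APOE3, amyloid in APOE3S/S, the amyloid interaction and the genotypes with amyloid became 149, 1008, 665, 75 and 739, and the genotypes went to 42 with tau (2 with the filter) and 343 untreated (1 with the filter). DESeq2 gave 296 for amyloid in APOE3 and 59 for the genotypes with amyloid, and the 2 groups alone gave 575 and 352. Tau against amyloid gave 1036 in APOE3 (1892 without a filter, 1600 by DESeq2, 3646 with the 2 groups alone, 58 to 572 on leaving out 1 library) and 21 in APOE3S/S (487, 153 and 2; 0 to 441). The series difference gave 758 in APOE3 (1399 without a filter, 1164 by DESeq2, 412 to 700 on leaving out 1 library) and 132 in APOE3S/S (769 and 433; 4 to 1474). Without APOE3S/S untreated library 2, 425 genes were called for amyloid in APOE3S/S, where there were 0. The cause was not tested.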
